A study of Rattus norvegicus with 9 samples.

Results

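The fast skeletal muscle contractile genes were Acta1, Tnnc2, Tnnt3, Tnni2, Myl1, Mylpf, Ckm, Atp2a1, Tpm2 and Myh4, which were chosen by name and made up 10 of the 32043 genes in the expression table. They were chosen with values of these same data in view, so their levels, their group differences and the counts of them that met the rule for calling a gene are given as a description only. Of these genes, 9 were found under their own names, and Mylpf was found as Myl11, which RefSeq gives as the same gene. Bulk RNA sequencing was performed on knee cartilage of male Sprague–Dawley rats, bought at 8 weeks of age, with 3 libraries in each of 3 groups. Control rats had the capsule of the knee joint opened and sutured, with ligaments and meniscus left in place. In the model group, knee osteoarthritis was induced by the modified Hulth surgery, in which the medial collateral and anterior cruciate ligaments are cut out and the medial meniscus is taken out, with forced activity afterwards. The SYD group had the same surgery followed by 4 weeks of gavage with an extract of Shengyu decoction (SYD), a herbal formula, and tissue was taken 8 weeks after surgery. The study also had operated rats given a positive control drug that it abbreviates CXB. Its methods name only control and model cartilage for sequencing, whereas its results name a SYD group too. The SYD libraries carry the library names CXTB1 to CXTB3, which do not spell SYD and resemble the abbreviation CXB. They were taken as SYD from their titles. The labels give no dose for them, which the study's text names as those of its high-dose group (SYD-H), and do not state whether the 3 libraries of a group came from separate animals, so every spread and p-value below measures only the variation between these libraries. The sample labels name cartilage, whereas their extraction text mentions retina.

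In striated muscle, force is produced in the sarcomere, where myosin thick filaments pull on actin thin filaments. Calcium released from the sarcoplasmic reticulum binds troponin on the thin filament, tropomyosin moves aside, and myosin can then bind actin. Fast-twitch fibers use their own forms of these proteins, together with a fast calcium pump and a muscle creatine kinase that keeps ATP supplied. Articular cartilage contains no skeletal muscle fibers, while muscle and its tendons lie against the knee joint. In a bulk library, fewer cells of a type and less RNA per cell cannot be told apart.

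RefSeq (assembly GRCr8) holds the promoters of 9 of the 10 genes, and the 250 bases before the start are printed 5′ to 3′ on the strand of the gene for 5 of them. Acta1, Ckm and Myh4 are shown as genes of the thin filament, the energy supply and the thick filament that were high in the same 4 libraries, and Atp2a1 and Tpm2 because they departed most from the others. The positions are chr19:68784195-68784444 (minus strand) for Acta1, chr1:88189211-88189460 (plus strand) for Ckm, chr10:52421898-52422147 (plus strand) for Myh4, chr1:190475411-190475660 (minus strand) for Atp2a1, and chr5:62575727-62575976 (minus strand) for Tpm2. Capitals mark matches, on either strand, to the E-box CANNTG, which myogenic regulatory factors are known to bind, to the MEF2 motif, and to the CArG box of serum response factor.
Acta1: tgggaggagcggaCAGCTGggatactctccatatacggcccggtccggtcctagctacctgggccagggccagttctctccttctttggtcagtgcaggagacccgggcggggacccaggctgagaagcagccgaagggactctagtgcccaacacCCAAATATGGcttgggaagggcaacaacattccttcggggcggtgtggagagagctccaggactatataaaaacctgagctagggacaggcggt
Ckm: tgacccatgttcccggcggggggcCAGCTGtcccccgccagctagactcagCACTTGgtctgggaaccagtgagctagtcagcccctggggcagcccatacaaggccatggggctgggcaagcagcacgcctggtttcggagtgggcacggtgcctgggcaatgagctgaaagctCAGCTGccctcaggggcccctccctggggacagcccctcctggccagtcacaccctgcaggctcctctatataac
Myh4: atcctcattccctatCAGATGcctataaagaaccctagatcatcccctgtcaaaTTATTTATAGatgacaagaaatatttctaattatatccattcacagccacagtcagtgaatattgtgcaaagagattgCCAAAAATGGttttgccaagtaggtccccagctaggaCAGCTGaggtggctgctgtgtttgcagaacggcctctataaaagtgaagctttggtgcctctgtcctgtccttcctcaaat
Atp2a1: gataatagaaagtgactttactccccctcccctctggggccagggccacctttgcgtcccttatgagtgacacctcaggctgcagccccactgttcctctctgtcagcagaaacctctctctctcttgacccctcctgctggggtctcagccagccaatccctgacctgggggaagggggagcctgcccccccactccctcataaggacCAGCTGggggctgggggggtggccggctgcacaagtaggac
Tpm2: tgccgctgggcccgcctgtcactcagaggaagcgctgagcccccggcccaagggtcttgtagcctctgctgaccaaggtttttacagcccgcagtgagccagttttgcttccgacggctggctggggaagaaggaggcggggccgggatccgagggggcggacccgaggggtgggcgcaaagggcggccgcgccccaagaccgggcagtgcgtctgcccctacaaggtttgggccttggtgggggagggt
The Acta1 promoter held 1 E-box and 1 CArG box, that of Ckm held 3 E-boxes, and that of Myh4 held 2 E-boxes, 1 MEF2 motif and 1 CArG box. Atp2a1 had 1 E-box, and in the window of Tpm2 none of these letters was found. At least 1 E-box was present in the promoters of 8 of the 9 genes, beside 65.5% of all 33469 rat promoters of the same length. The form CAGCTG, which is one of the forms of CANNTG, was present in 5 of the 9 genes, beside 12.0% of all promoters. The MEF2 motif was found in 2 of the 9 genes (3.0% of all promoters) and the CArG box in 2 (1.5%). A gene was counted where any of its promoters held a match, while the percentages are over single promoters. Myl1, which has more than 1 promoter, held the MEF2 motif in only 1 of them. These matches describe letters only, and the libraries carry no measurement of binding.

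Levels are given as FPKM, fragments per kilobase of gene length as scaled by the authors to library size, which corrects for gene length between genes. That scaling was not in proportion to the reads, being 0.193 to 2.18 times them, so differences between libraries depend on it, and shares of reads are given beside the sums. Where 3 values are given for a group, they are those of its libraries 1, 2 and 3 in that order. Whole reads behind each FPKM could be recovered, and the libraries held 14914121 to 19510537 reads. Mitochondrial genes took 4.05% to 4.86% of the reads in the controls, 39.5% to 90.7% under the model and 23.7% to 72.7% under SYD, which left between 1744769 reads (model 1) and 17373645 reads (control 3) for all other genes. The summed level of 15 cartilage genes also varied, from 12040 and 6150 FPKM in control 1 and control 3 to 502 FPKM in control 2, from 206 to 828 FPKM in the model group and from 191 to 1473 FPKM in the SYD group. The defining cartilage gene Col2a1 was detected in all 9 libraries, at 39.0 to 8323 FPKM, whereas Matn1 was listed at 0 in all model and SYD libraries.

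Fast skeletal muscle genes were detected in every library of every group, and for 9 of them more of the variation lay between libraries of one group than between the groups, Tpm2 being the exception. The summed level of the 10 genes was 425, 91.4 and 28.7 FPKM in control libraries 1 to 3. It was 290, 58.2 and 1366 FPKM in model libraries 1 to 3, and 54.1, 1522 and 822 FPKM in SYD libraries 1 to 3. Each group therefore held at least 1 library with a high and 1 with a low level, and the highest library exceeded the lowest by 14.8-fold among the controls, 23.5-fold in the model group and 28.1-fold in the SYD group. The group means were 182 ± 213 FPKM for control, 571 ± 698 FPKM for model and 799 ± 734 FPKM for SYD (SD, n = 3 each), and the libraries of all 3 groups overlapped. As a share of all reads, mitochondrial ones included, the means were 0.0706% ± 0.0824 in control, 0.0446% ± 0.0412 in model and 0.175% ± 0.205 in SYD (SD, n = 3 each), so that the model mean lay below the control mean on that scale. Control 1 (0.165%) was then above model 3 (0.0915%) and SYD 3 (0.0935%). As a share of the reads outside the mitochondrial genes, the 10 genes took from 0.0116% in control 3 (95% Wilson interval 0.0111% to 0.0121%) to 0.624% in SYD 2 (0.620% to 0.629%). These intervals cover counting error only, since reads are not independent molecules.

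The highest libraries were largely shared between the genes. Model 3, SYD 2 and SYD 3 were among the 4 highest libraries for 10 of the 10 genes, and control 1 was among them for 8. SYD 2 was the highest library for 6 genes and model 3 for the other 4. Control 3 was the lowest for 5 genes and model 2 for the other 5, so the highest and lowest libraries came from different groups for 9 genes and from the model group for 1, Myl1. On the log2(FPKM + 1) scale, the 45 pairs of genes had Pearson correlations of 0.46 to 0.99 over the 9 libraries, with a median of 0.89, and 31 pairs exceeded 0.8. The libraries behind these correlations are shared, and the genes were chosen as a set, so they are a description.

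**Figure D1:**
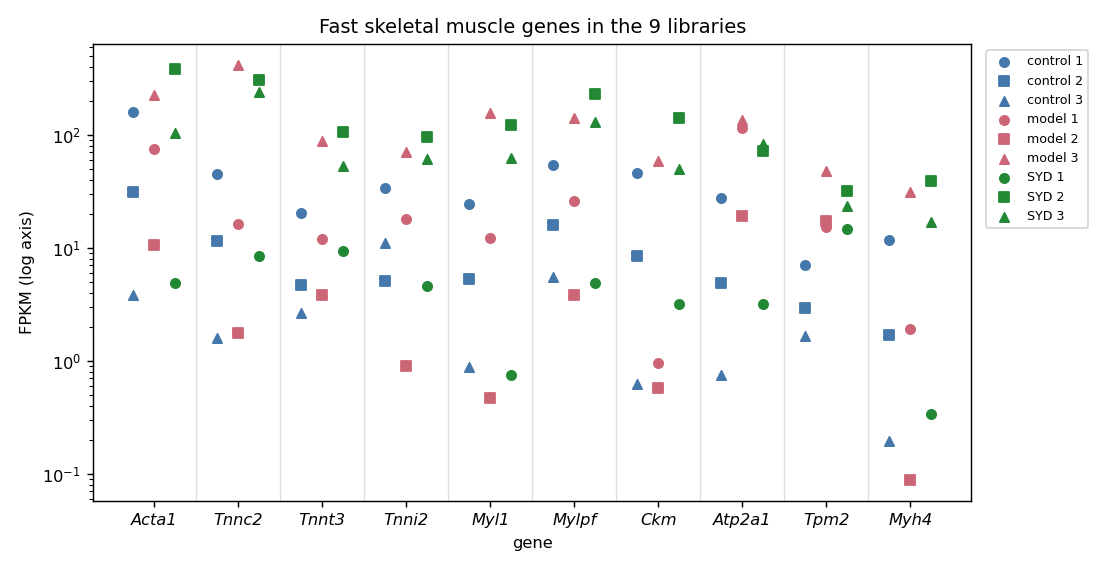
FPKM (log axis) of each of the 10 fast skeletal muscle genes in the 9 libraries, with color for the group and marker shape for the library number. The libraries spread over more than 10-fold for 6 genes in the controls, 8 in the model group and 9 in the SYD group; Tpm2 is the gene whose 3 control points all lie below the others.

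Among the thin filament genes, Acta1 encodes skeletal muscle actin, the backbone of the filament. It was at 157, 31.0 and 3.81 FPKM in the controls, at 74.2, 10.4 and 225 FPKM in the model group, and at 4.87, 382 and 104 FPKM in the SYD group. The highest control library thus exceeded the lowest SYD library and the lowest model library, and the 3 groups overlapped. Over all libraries, Acta1 varied by 100.5-fold. Set against the other actins, Acta1 took 0.382% to 13.7% of the summed FPKM of 6 actin genes (Acta1, Actb, Actg1, Acta2, Actc1 and Actg2) in the controls, 0.910% to 17.9% under the model and 0.553% to 24.8% under SYD.

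The 3 fast troponin subunits sit together on the thin filament. Tnnc2, the calcium-binding subunit, was at 44.6, 11.4 and 1.59 FPKM in the controls, 16.2, 1.77 and 415 FPKM in the model group, and 8.40, 306 and 241 FPKM in the SYD group. Model 3 was the highest library for Tnnc2, while model 2 was close to the lowest. Tnni2, the inhibitory subunit, was at 33.6, 5.12 and 11.0 FPKM in the controls, 17.8, 0.891 and 69.7 FPKM in the model group, and 4.62, 95.9 and 61.1 FPKM in the SYD group. Tnni2 was the only one of the 10 genes that was higher in control 3 than in control 2. Control 3 held 610 Tnni2 reads beside 47 reads of Tnnc2, and Tnni2 made up 38.4% of the summed level of the 10 genes there, against 1.53% to 8.53% in the other libraries. Fast troponin I is also known from cartilage, from which it was isolated as an inhibitor of blood vessel growth, and the summed cartilage genes were at 6150 FPKM in control 3. They were higher in control 1, at 12040 FPKM, where Tnni2 made up 7.90% of the summed level of the 10 genes. Their part in the Tnni2 level was not tested.

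Tnnt3, the subunit that anchors troponin to tropomyosin, was at 20.1, 4.64 and 2.66 FPKM in the controls, 12.0, 3.82 and 87.9 FPKM in the model group, and 9.42, 106 and 53.1 FPKM in the SYD group. The same 3 libraries were high for Tnnt3 as for the other troponins. Tnnt3 accounted for 51.9% (model 1) to 99.3% (SYD 2) of the summed FPKM of the fast and slow skeletal forms Tnnt3 and Tnnt1, with 70.4% in model 2 and 76.6% in control 3. In model 3, SYD 2 and SYD 3, Tnnc2 accounted for at least 96.4% of the summed FPKM of Tnnc2 and the slow form Tnnc1, and Tnni2 for 91.6% to 98.6% of that of Tnni2 and the slow form Tnni1. The share of Tnni2 was at least 93.0% in the other 6 libraries too, and that of Tnnc2 was 91.4% in SYD 1. In control 3 the share of Tnnc2 was 45.5% and in model 1 it was 48.4%, so that the slow form was the higher of the pair in these libraries. The Tnnc2 entry overlaps 69 bases of Ube2c on the opposite strand, which was at 26.9, 51.6 and 31.7 FPKM in the controls and 53.3 FPKM in model 1, and its part in the low Tnnc2 values was not tested.

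Tpm2 encodes beta-tropomyosin, which lies along actin and is also known from slow fibers and smooth muscle. It was at 7.01, 2.94 and 1.67 FPKM in the controls, 15.2, 17.3 and 47.5 FPKM in the model group, and 14.5, 31.4 and 23.4 FPKM in the SYD group. Every model and SYD library was above every control library, which was seen for no other gene of the set. Both groups were also above the controls as a share of the reads outside the mitochondrial genes, where the lowest model library (model 1) held 262 Tpm2 reads of 1744769, the lowest SYD library (SYD 1) 1831 of 12322343, and the highest control (control 1) 998 of 14306782. With mitochondrial reads counted in the total, the SYD libraries stayed above the controls but the model libraries did not, since Tpm2 took 262 of 18815977 reads in model 1, a lower share than in any control (312 of 18107232 in control 3, the lowest). The group means were 3.87 ± 2.79 FPKM in control, 26.6 ± 18.1 FPKM in model and 23.1 ± 8.43 FPKM in SYD (SD, n = 3 each). Tpm2 also had the narrowest range, at 28.5-fold over all libraries.

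The level of Tpm2 was highest in model 3, SYD 2 and SYD 3, but its share of the signal was largest elsewhere. In model 2 and SYD 1, Tpm2 was represented by 2164 and 1831 reads and made up 29.6% and 26.8% of the summed level of the 10 genes, whereas its share was 1.65% to 5.80% in the other 7 libraries. Its correlation over the 9 libraries was 0.66 with the mean of the other 9 genes and 0.76 with the mean of a list of smooth muscle genes. For the other 9 genes, the correlation with the mean of the remaining members was 0.79 to 0.99 and that with the smooth muscle list was 0.20 to 0.55. The smooth muscle gene Acta2 was at 88.1 FPKM in model 2 and 76.4 FPKM in SYD 1, beside 1.93 to 7.13 FPKM in the controls. Model 1 was an exception, with Acta2 at 2.37 FPKM and Tpm2 at 15.2 FPKM. The part of smooth muscle RNA in the Tpm2 level was not tested.

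The thick filament genes followed Acta1 and the troponins closely. Myl1, an essential light chain of fast myosin, was at 24.2, 5.32 and 0.871 FPKM in the controls, 12.1, 0.468 and 156 FPKM in the model group, and 0.741, 121 and 62.7 FPKM in the SYD group. Mylpf, the regulatory light chain of fast myosin, was at 53.5, 16.0 and 5.54 FPKM in the controls, 25.9, 3.80 and 141 FPKM in the model group, and 4.90, 229 and 129 FPKM in the SYD group. These light chains formed the closest pair of the set, with a correlation of 0.99 over the 9 libraries. Myl1 ranged over 334-fold and Mylpf over 60.3-fold, since Mylpf was never below 3.80 FPKM.

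Myh4, the myosin heavy chain of the fastest (type IIB) fibers, was at 11.7, 1.69 and 0.193 FPKM in the controls, 1.91, 0.0878 and 31.0 FPKM in the model group, and 0.340, 38.6 and 16.9 FPKM in the SYD group. It had the widest range of the 10 genes, at 439-fold, and rested on 28 reads in model 2 and on 13218 reads in SYD 2. The entry named Myh4 may hold more than 1 gene. It is 12070 bases long, beside 6041 bases of the neighboring Myh2 entry, and spans positions 51885913 to 51946295 of chromosome 10 in the authors' table, whose build is not named. No entry was named Myh1, and RefSeq places Myh1 between Myh2 and Myh4. Values of Myh4 are therefore uncertain as to which fast heavy chain they count, and its FPKM may be understated by the length of the entry. Among 5 sarcomeric heavy chains (Myh4, Myh2, Myh7, Myh3 and Myh8), Myh4 took 40.0% to 91.9% of the summed FPKM.

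Calcium handling and energy supply were represented by 1 gene each, and here the libraries of the model group departed from the order seen for most of the other genes. Atp2a1 encodes SERCA1, the fast muscle calcium pump of the sarcoplasmic reticulum. It was at 27.6, 4.84 and 0.748 FPKM in the controls, 113, 19.1 and 134 FPKM in the model group, and 3.15, 71.8 and 82.5 FPKM in the SYD group. Model 1 was nearly as high as model 3, although model 1 was below model 3 by 3-fold or more for each of the other 9 genes. Ckm, the muscle creatine kinase, was at 45.6, 8.49 and 0.615 FPKM in the controls, 0.952, 0.576 and 58.9 FPKM in the model group, and 3.18, 140 and 49.2 FPKM in the SYD group. Model 1 was low for Ckm and high for Atp2a1.

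The ratio of Atp2a1 to Ckm was 0.605, 0.570 and 1.22 in the controls and 0.989, 0.513 and 1.68 under SYD. In the model group it was 119, 33.2 and 2.28. Model 1 held 1580 reads of Atp2a1 and 5 of Ckm, and model 2 held 1935 and 22, so that both ratios rest on few reads of Ckm. Atp2a1 took 95.6% of the summed FPKM of Atp2a1, Atp2a2 and Atp2a3 in model 1 and 47.8% in model 2, whereas Ckm took 0.430% and 0.131% of that of the creatine kinases Ckm and Ckb. In model 3, both were high, at 94.6% and 25.0%. The Ckm entry overlaps 2817 bases of Mark4 on the opposite strand and the Atp2a1 entry 41 bases of Rabep2, and the sources used here do not state whether counting used the strand. Rabep2 was listed at 0 in model 1 and at 3.36 FPKM in model 2.

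**Figure D2:**
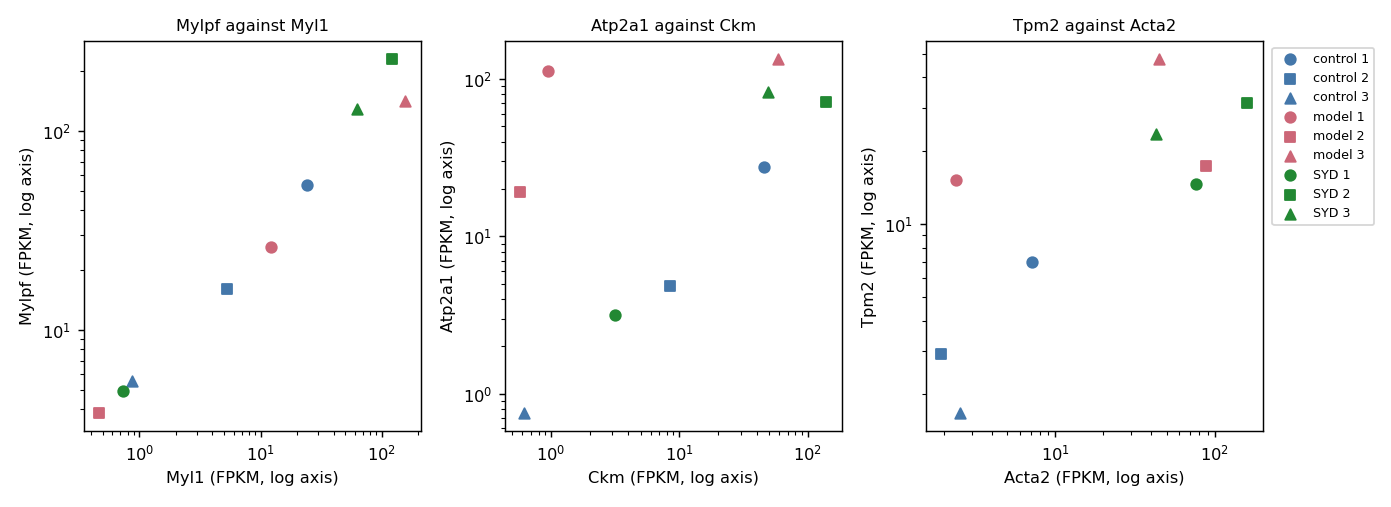
FPKM on log axes for pairs of genes in the 9 libraries: Mylpf against Myl1, Atp2a1 against Ckm, and Tpm2 against the smooth muscle actin Acta2. The light chains fall along a line, model 1 and model 2 stand above the other libraries in Atp2a1 for their level of Ckm, and the 3 controls are lowest in Tpm2, while model 1 has Tpm2 at 15.2 FPKM with Acta2 at 2.37 FPKM.

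Some other genes of the sarcoplasmic reticulum were present in model 1 as well, and were named after their values were seen. Casq1, the calcium store protein of fast fibers, was at 20.1 FPKM (135 reads) in model 1, beside 9.79, 1.66 and 0.727 FPKM in the controls. It was higher in model 3 (24.9 FPKM), SYD 2 (44.6 FPKM) and SYD 3 (22.1 FPKM). Trdn (triadin) was at 10.5 FPKM (172 reads) in model 1, below model 3 (29.4 FPKM), SYD 2 (11.3 FPKM) and SYD 3 (23.6 FPKM). Hrc, a calcium-binding protein of the reticulum, was at 12.4 FPKM (125 reads) in model 1, beside 13.1, 7.36 and 6.90 FPKM in model 3, SYD 2 and SYD 3. Of the 21 genes of excitation-contraction coupling, however, 14 were listed at 0 there, among them the calcium release channel Ryr1. The fast fiber genes Pvalb, Actn3 and Mybpc2 and the sarcomere scaffold genes Tcap and Des were also at 0, while Pdlim3 (8.21 FPKM) and Mybpc1 (5.99 FPKM) of the scaffold were not. Of 85 other skeletal muscle genes in the table, 53 were listed at 0 in model 1, compared with 36 in model 2, 21 in model 3, 23 in SYD 1, 5 in SYD 2, 12 in SYD 3 and 2 to 7 in the controls. Model 1 also had the fewest reads outside the mitochondrial genes, and the part of depth in these zeros was not tested.

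The make-up of the fast muscle signal thus differed between libraries even where its sum was alike, as in model 2 (58.2 FPKM) and SYD 1 (54.1 FPKM). Acta1 was the leading gene in control 1, control 2 and SYD 2, with 37.0%, 33.9% and 25.1% of the summed FPKM of the 10 genes. Tnnc2 led in model 3 and SYD 3, with 30.4% and 29.3%, Atp2a1 led in model 1 and model 2, with 39.2% and 32.8%, Tnni2 led in control 3, and Tpm2 led in SYD 1. The ratio of Tnnc2 to Acta1 was 0.284, 0.369 and 0.418 in the controls. It was 0.218, 0.169 and 1.84 under the model, and 1.72, 0.80 and 2.32 under SYD. All 3 SYD libraries were thus above the control libraries in this ratio, while the model group held both its lowest values and its second highest.

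**Figure D3:**
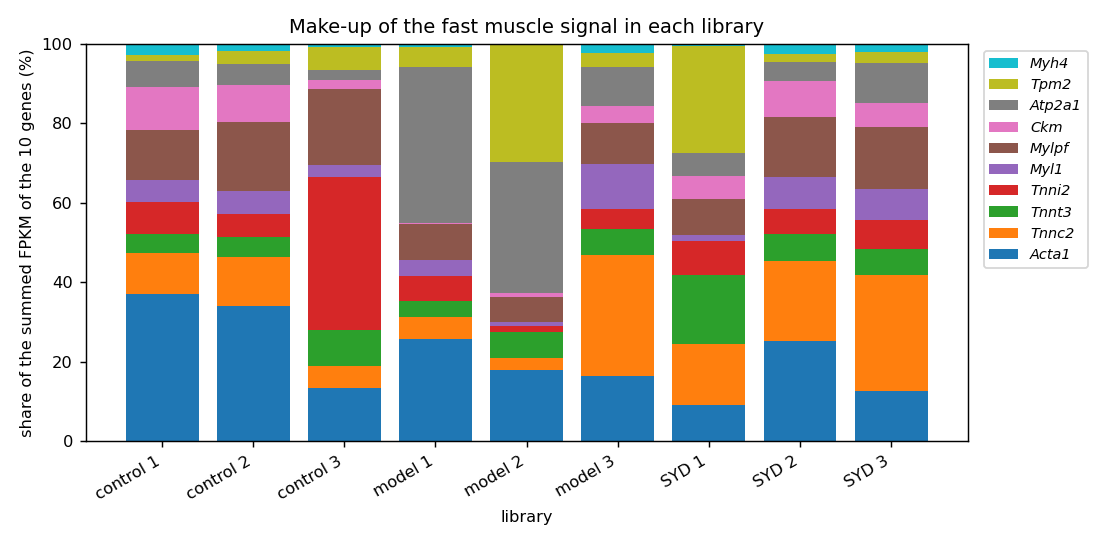
Share (%) of each of the 10 genes in their summed FPKM, as stacked bars for the 9 libraries. Acta1 is the widest band in control 1, control 2 and SYD 2, Tnnc2 in model 3 and SYD 3, Atp2a1 in model 1 and model 2, Tnni2 in control 3 (38.4%) and Tpm2 in SYD 1 (26.8%).

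Group differences were then set beside this spread. They were fitted with limma on log2(FPKM + 1) for 13898 genes (mean FPKM 0.5 or more), for each pair of groups (6 libraries), and a gene was called where the unadjusted p-value was under 0.05 and the absolute log2 fold change over 1, the criteria of the study. Between model and control, 2 of the 10 genes met this rule, both higher in model, where 14.7% of all genes tested did and 3.55% were called higher. Since the genes were chosen with these values known, nothing is read from that count or from those in the other comparisons. Tpm2 had a log2 fold change of 2.47 (SE 0.59) and Atp2a1 of 3.35 (SE 1.19). The others ranged from −0.65 (SE 1.78) for Ckm to 1.25 (SE 1.96) for Tnnc2, and for these 8 genes the difference was near or below its SE. The median log2 fold change of the 10 genes was 1.06, beside −0.23 over all genes tested, and it was −0.64 without model 3 and −0.99 with voom on the recovered reads (−0.52 over all genes). After rescaling to TPM it was −1.88, but that scaling moved all genes tested together, to a median of −2.60.

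Between SYD and model, 0 of the 10 genes were called, where 4.15% of all genes tested were. The log2 fold changes ranged from −1.21 (SE 1.32) for Atp2a1 to 2.44 (SE 1.80) for Ckm. That of Tpm2 was −0.07 (SE 0.51), the smallest in size and in error. The median was 1.08, beside 0.22 over all genes tested, and it was −0.16 without model 2, 2.51 without SYD 1, 2.49 after rescaling to TPM (1.22 over all genes) and 2.70 with voom (0.35 over all genes). The libraries of both groups overlapped for every one of the 10 genes, whereas 11.1% of all genes tested did not overlap.

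Between SYD and control, Tpm2 was called, with a log2 fold change of 2.40 (SE 0.47), where 16.5% of all genes tested were called and 7.25% were called higher. The other 9 genes had log2 fold changes of 1.09 (SE 1.90, Acta1) to 2.96 (SE 1.67, Tnnc2). All 10 values were positive, with a median of 1.81 beside 0 over all genes tested, and the median kept its sign under the alternatives tried, between 0.47 after rescaling to TPM (−1.31 over all genes) and 2.15 with voom (−0.02 over all genes), and between 0.68 without SYD 2 and 3.24 without SYD 1. The comparisons with the control group share the control libraries and those with the model group share the model libraries, so the 3 sets of values are not independent. Libraries did not overlap between the groups for 1 of the 10 genes (Tpm2) in model against control, where 28.7% of all genes tested did not overlap (8.65% higher in model). In SYD against control it was again 1 gene (Tpm2), where 42.5% of all genes did not overlap (20.3% higher in SYD).

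**Figure D4:**
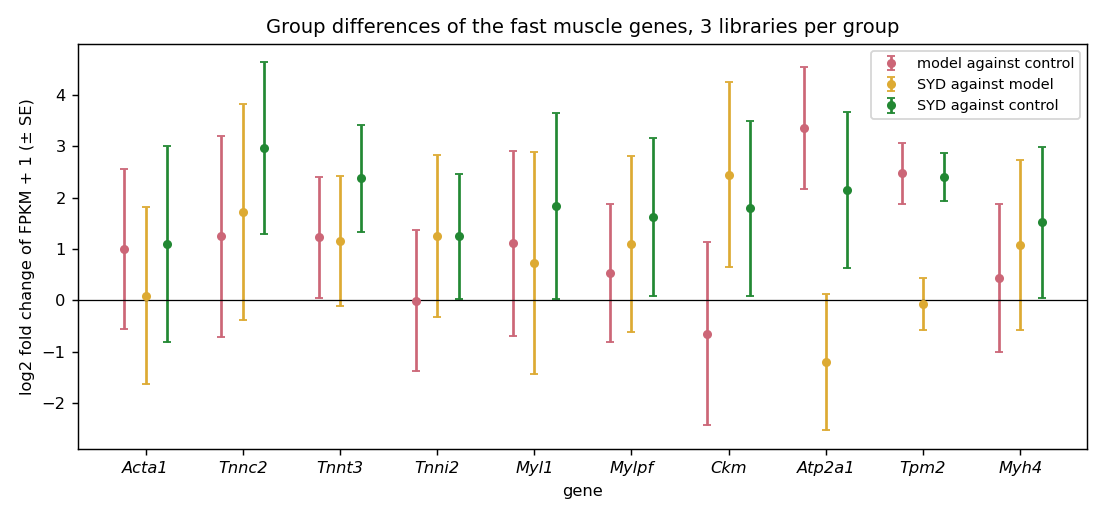
Log2 fold change of FPKM + 1 with its standard error (bars) for the 10 genes in the 3 comparisons, from limma on 3 libraries per group. Tpm2 has the shortest bars and lies above 0 in both comparisons with control (2.47 and 2.40).

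The spread itself was large compared with other genes. On the log2(FPKM + 1) scale, the SD between libraries of one group had a median over the 10 genes of 1.81 in control, 2.47 in model and 2.58 in SYD. Over all genes tested, these medians were 0.17, 0.79 and 0.37. Each of the 10 genes was above the median of all genes in each group. Of the variation of a gene over the 9 libraries, a median of 85.3% lay within groups for the 10 genes, beside 63.4% for all genes tested. This share was highest for Acta1 (94.9%) and lowest for Tpm2 (22.2%), with Atp2a1 next at 58.9%.

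Other skeletal muscle genes followed the same libraries to differing degrees. Of the 13898 genes tested, the 8 with the highest correlation to the mean log2 level of the 10 genes were Eno3, Ankrd23, Mb, Myoz1, Xirp2, Pygm, Cmya5 and Asb2, with r of 0.94 to 0.99 over 9 libraries, and 5 of these were on the muscle lists written for this comparison. Eno3, the muscle enolase, was at 14.7, 5.91 and 4.11 FPKM in the controls, 9.61, 4.83 and 40.0 FPKM in the model group, and 5.14, 50.8 and 25.6 FPKM in the SYD group. Mb, the oxygen store myoglobin, was at 21.6 FPKM in model 3, 13.6 FPKM in SYD 2 and 14.6 FPKM in SYD 3, and at or below 5.93 FPKM elsewhere. A correlation over 0.8 was seen for 0.482% of all genes tested. It was seen for 34 of the 67 other skeletal muscle genes tested, namely 5 of 7 other fast fiber genes, 17 of 24 genes of the sarcomere scaffold, 7 of 15 genes of muscle energy supply, 4 of 13 genes of excitation-contraction coupling and 1 of 8 slow fiber genes. The median correlations of these lists were 0.88, 0.82, 0.75, 0.78 and 0.59 in that order, beside −0.07 over all genes tested. A correlation over 0.8 was seen for none of the myogenic (0 of 5), developmental muscle (0 of 3), smooth muscle (0 of 10), cartilage (0 of 15) and bone (0 of 10) genes.

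Fast and slow fiber genes did not keep one proportion. Slow fiber genes summed to 33.2 FPKM in model 3 and 40.6 FPKM in SYD 3 but to 8.26 FPKM in SYD 2, although SYD 2 had the highest sum of the fast genes. Myh7, the slow myosin heavy chain, was at 2.62 FPKM (103 reads) in model 3 and 3.14 FPKM (214 reads) in SYD 3, and at 0.0476 FPKM (8 reads) in SYD 2. The slow light chain Myl3 was at 7.52 FPKM and 5.94 FPKM in model 3 and SYD 3 and was listed at 0 in SYD 2. Myh2, the heavy chain of type IIA fibers, was at 5.83, 0.863 and 5.87 FPKM in model 3, SYD 2 and SYD 3. The fast fiber gene Pvalb, a calcium buffer, had the reverse order, at 36.4 FPKM in model 3, 75.7 FPKM in SYD 2 and 10.4 FPKM in SYD 3. Each of these 3 libraries is 1 sample, so the differences between them have no replicate.

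**Figure D5:**
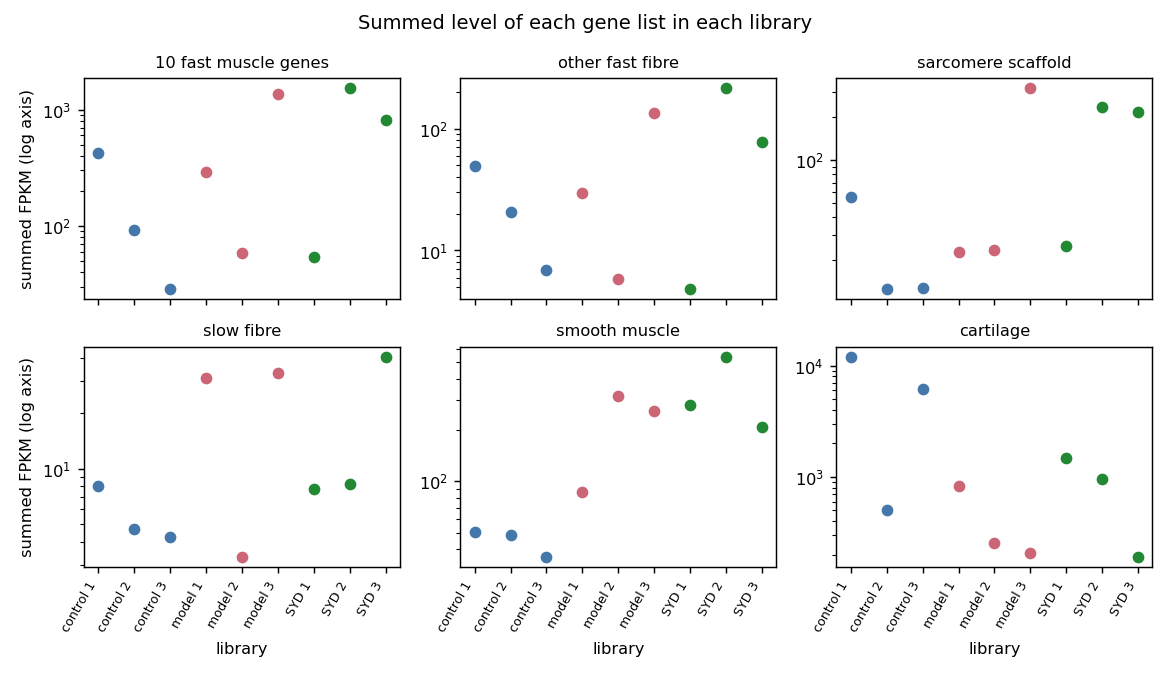
Summed FPKM (log axes, each panel with its own range) of 6 gene lists in the 9 libraries, colored by group. The other fast fiber and scaffold lists are highest in model 3, SYD 2 and SYD 3 like the 10 genes, the slow fiber list is low in SYD 2 (8.26), smooth muscle is lowest in the 3 control libraries, and cartilage is highest in control 1 and control 3.

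Over the 85 other skeletal muscle genes in the table, 67 were tested. Their lists were written with earlier results of these data known. A gene was tested on its mean over all 9 libraries, so some passed through 1 group. Trim54 (means of 0.244, 0.363 and 2.36 FPKM in control, model and SYD) and Clcn1 (0.0631, 0.477 and 1.77 FPKM) passed through SYD. Counts among the 67, and p-values of single genes, are therefore a description. Between model and control, 4 of the 67 were called, all higher in model, where 14.7% of all genes were called and 3.55% were called higher. These were Tnnt1, Hrc, Cox6a2 and Fabp3, for which limma with Benjamini-Hochberg adjustment gave p-values of 0.196, 0.168, 0.260 and 0.117. After rescaling to TPM, which moved the median of all genes to −2.60, the differences were −0.49 for Tnnt1, −0.26 for Cox6a2 and 0.04 for Hrc, all above that median. In all, the call was lost in 7 of 14 alternatives for Tnnt1, 6 for Hrc, 9 for Cox6a2 and 1 for Fabp3. Tnnt1, the slow troponin T, was at 1.10, 0.815 and 0.813 FPKM in the controls and 11.1, 1.60 and 8.71 FPKM in the model group. Between SYD and model, 0 of the 67 were called, 0 had an unadjusted p-value under 0.05 in limma, and voom called 3.

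Between SYD and control, 10 of the 67 were called, all higher in SYD, where 16.5% of all genes were called and 7.25% were called higher. Hspb7, a small heat shock protein of muscle, was the 1 gene below 0.05 after adjustment (limma, 0.0377), as were 17.3% of all genes, and was higher by 1.67 on the log2 scale (SE 0.38). Its adjusted p-value was 0.0321 to 0.218 under the 14 alternatives. It was at 1.17, 0.179 and 0.206 FPKM in the controls and 2.90, 6.23 and 2.51 FPKM in the SYD group, so the groups did not overlap. Des, which links sarcomeres as the intermediate filament desmin, was higher by 2.06 on the log2 scale (SE 0.81), with 0.136 as its adjusted p-value in limma, and lost its call in 8 of 14 alternatives. The median log2 fold change of the 67 genes was 0.47, 0.48 and 1.04 in model against control, SYD against model and SYD against control. Without SYD 1, 37 of the 67 were called against control, and without control 3 only 1 was.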

How the data were processed

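The deposited values are FPKM, computed by the authors for each gene in each library, with positions and lengths whose build is not named. The submitters' processing notes name HISAT2 2.0.5 and hg38, a human assembly, whereas the gene identifiers are those of rat. In every library FPKM times gene length was a whole multiple of 1 step, within a tolerance of 0.1, which gave the reads. The authors' effective library size was 0.193 (model 1) to 2.18 (control 3) times these reads, so FPKM of libraries rich in mitochondrial reads are scaled up.

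Groups were taken from the labels. Differences were fitted with limma 3.58.1 in R 4.3.3 (eBayes with a trend, two-sided, Benjamini-Hochberg adjustment over the 13898 genes whose mean FPKM was 0.5 or more) on log2(FPKM + 1), which understates the change of low genes. The code of the fit was run on simulated normal values with 1 SD per gene for all groups. The groups here differ in spread, so that run does not show how the fit behaves on these libraries. The 10 genes and the gene lists were chosen with earlier results of these data known. Of the 229 listed genes, 222 were matched. Named genes were the 10, the 3 highest of each list, the listed myosin heavy chains and troponins, the 8 genes most alike, and those described as looked at afterwards. Fabp3, Cox6a2, Hspb7, Mybpc2, Mybpc1, Pdlim3, Ryr1, Trim54, Clcn1, Myf6, Matn1, Mark4, Ube2c and Rabep2 were also named after their values were seen. Motifs were searched in promoters of 250 bases. The closing part gives the alternatives.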

Additional observations from a re-analysis of the deposited data

How the results depend on the processing

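Rescaling to TPM, which counts the mitochondrial genes in the total, moved the median of all genes tested to −2.60 in model against control, 1.22 in SYD against model and −1.31 in SYD against control, and fold changes are to be read relative to these shifts. With TPM, 10445 genes were called in model against control and 6029 in SYD against control, the median of the 10 muscle genes in model against control was −1.88, and 17, 5 and 4 of the 67 other skeletal muscle genes were called in the 3 comparisons. Voom, run on the reads recovered from FPKM and added once the data had been seen, called 3275 genes and 8 of the 67 in model against control, and 1078 genes and 3 of the 67 in SYD against model. With all 9 libraries in one fit, 1220 genes and 3 of the 67 were called in SYD against model, and 4 of the 67 in SYD against control. A pseudocount of 0.1, and rescaling to reads outside the mitochondrial genes (chosen after seeing the data), each called 1 of the 67 in SYD against model. The cause of these differences was not tested. Of the 13 other genes printed with a p-value, 182 values in all, 146 kept their call and 33 lost it, and 3 were below 0 in model against control with TPM, Tnnt1 (−0.49), Cox6a2 (−0.26) and Myl9 (−1.52), each above the all-gene median of −2.60.

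Leaving out each library in turn gave 1309 to 3344 genes called in model against control, 315 to 2495 in SYD against model and 1788 to 2603 in SYD against control. The median of the 10 genes ranged from −0.64 to 2.17, from −0.16 to 2.51 and from 0.68 to 3.24, and the number called of the 67 from 1 to 13, from 0 to 6 and from 1 to 37. In model against control, the extremes were without control 2 (1309 genes), control 3 (1327 genes, and 1 of the 67), model 3 (−0.64) and model 2 (3344, 2.17 and 13). In SYD against model they were without model 2 (2495 and −0.16) and SYD 1 (315, 2.51 and 6), with 372 genes without SYD 2 and 379 without model 3. In SYD against control, 37 of the 67 were called without SYD 1, 5 without SYD 2, 4 without SYD 3, 2 without control 2 and 1 without control 3. Over all settings, 140 values of the 10 genes in each comparison, the sign differed from the reported one in 23, 13 and 4.

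The labels give the same replicate numbers in each group, but nothing says that a number marks a shared animal, batch or day. Deviations from the group means of same-numbered libraries had correlations of −0.27 to 0.19, so the numbers were not taken to pair the libraries. With the replicate number as a block, 1668, 526 and 2259 genes were called, the medians of the 10 genes were as reported (1.06, 1.08 and 1.81), and 5, 0 and 6 of the 67 were called. In a library with few reads outside the mitochondrial genes, such as model 1, 3 reads of Ckm correspond to 0.571 FPKM, the level that a count of 0 would allow there.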

Other observations

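Smooth muscle genes were higher in the SYD than in the control group. Of 10 tested, 7 were called, all higher, where 16.5% of all genes were called and 7.25% were called higher. For 5 of the 7 (Acta2, Tagln, Myh11, Lmod1 and Actg2) limma gave adjusted p-values of 0.0107 to 0.0284. This list too was written with earlier results of these data known. Markers of other cell types moved in the same comparison, with 5 of 7 endothelial and 6 of 8 osteoclast genes called higher and 5 of 7 neutrophil and 5 of 8 erythroid genes called lower, and their part in the smooth muscle result was not tested. Acta2, smooth muscle actin, differed by 4.22 on the log2 scale (SE 0.59) and was at 7.13, 1.93 and 2.52 FPKM in the controls and 76.4, 160.0 and 42.6 FPKM under SYD. Its adjusted p-value in limma was 0.0126, and 0.00863 to 0.0886 under the alternatives. Tagln, an actin-binding protein of smooth muscle, differed by 4.15 (SE 0.54). In the model group, Acta2 was at 2.37, 88.1 and 44.8 FPKM. Myl9, the regulatory light chain of smooth muscle myosin, was higher in model than in control by 1.61 on the log2 scale (SE 0.34, adjusted p-value 0.0705 in limma), and the difference was −1.52 after rescaling to TPM, where the median of all genes was −2.60.

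Of 16 listed genes of muscle precursors and muscle regulation, 2 to 11 were listed at 0 in the controls. The range was 12 to 14 in the model group and 7 to 11 in the SYD group. Mef2c was detected in all 9 libraries, at 4.73 to 12.7 FPKM, and Myf6 was at 2.28 FPKM in SYD 2 and 4.21 FPKM in SYD 3. Pax7, the marker of satellite cells, was at 0.0260 FPKM in control 1 and listed at 0 in the other 8 libraries. Cdh15, which is known from muscle precursors among other cells, was higher in SYD than in control by 1.39 on the log2 scale (SE 0.21), with an adjusted p-value of 0.0144 in limma. It lost its call with all 9 libraries in one fit (adjusted p-value 0.387 in limma) and after rescaling to TPM, where it differed by 0.15 and the median of all genes by −1.31. It was at 8.44, 8.65 and 8.95 FPKM in the SYD group and so did not follow the fast muscle genes, which were low in SYD 1. SYD 2 was the one library with clear levels of Myh3, the embryonic myosin heavy chain, at 5.21 FPKM (923 reads), beside 0 to 0.862 FPKM in the other 8 libraries, and of Myog, a regulator of muscle differentiation, at 0.942 FPKM (38 reads), beside 0 to 0.117 FPKM. These are values of 1 library, named after they were seen.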
